A study of Mus musculus with 12 samples.

Results

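Ctnnd1 encodes p120-catenin, and its pre-mRNA and mRNA were examined as a target of the splicing regulator ESRP1 in mouse epidermis. All ESRP1 crosslink sites on the minus strand within the annotated gene were taken (GRCm38, chromosome 2, 84587096 to 84658977, a span of 71882 nt), and sites at most 10 nt apart were joined into regions over all site lists. This gave 49 regions in Ctnnd1 of 45738 in the whole data set, and 13 of the 49 held a site of every list, against 9649 such regions in all. The gene was chosen with its number of regions already known, so its counts are a description and carry no test.

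The sites come from enhanced crosslinking and immunoprecipitation (eCLIP), in which ultraviolet light ties a protein to the RNA it touches and stops of reverse transcription mark the contact. Epidermal sheets came from back skin of pups at postnatal day 1, and every animal had the genotype Esrp1FLAG/FLAG, a FLAG tag on endogenous ESRP1. The labels name 6 FLAG immunoprecipitations and 6 inputs without antibody, from biological replicates 1 to 6, each cut from the membrane at 75 to 140 kDa. The sources used here do not say how many pups made up a replicate, and inputs of the same tagged tissue, not untagged animals, were the control. The authors called sites on 2 replicates together: list 1 from replicates 1 and 2, list 2 from replicates 3 and 4 and list 3 from replicates 5 and 6. A site is 1 nt wide and carries the authors' score, a value without a stated scale. It was used to rank sites within a list. Scores of different lists are set side by side as deposited, and since a common scale is not stated, their order between lists has no meaning of its own.

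p120-catenin is an armadillo-repeat protein that binds the juxtamembrane part of classical cadherins and keeps them at the cell surface. It also acts on small GTPases of the cytoskeleton and binds the transcription factor Kaiso. Its transcripts are a well-known case of epithelial splicing: exons near the 5′ end that carry the first translation start are included in mesenchymal cells and skipped in epithelial cells, where ESRP proteins favour the short form. Exon positions were not used here, so sites are placed by their distance along the gene and not as exonic or intronic.

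RefSeq (GRCm38.p6) gives 2 transcription starts for Ctnnd1 on the minus strand, and the position of the ESRP1 sites relative to them framed the map. The 30 bases just before each start are shown to fix where these starts lie, with the base that adjoins the start in capitals. The upstream start is at 84658977 (bases chr2:84658978-84659007, minus strand) and the downstream start at 84650740 (bases chr2:84650741-84650770, minus strand).
Upstream start: aatcagacgaggaggggcgccttggtgggA
Downstream start: atcacttaggaaagctagggtagggctgcC
The starts are 8237 nt apart, and this stretch held no site in any list. Of the 175 Ctnnd1 sites of the 3 lists, all 175 lay beyond the downstream start. The nearest one, at 84650666 in list 1 with a score of 22.6, was 74 nt beyond it. The absence of sites between the starts is an absence at the depth of these lists, which is unknown, since they hold no read counts.

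No site lay on the plus strand of the span in any list. The 10000 nt beyond either end of the gene held no site on either strand, against 0.812 sites per kb and list inside the gene on its own strand. Btbd18, the next protein-coding gene, begins on the plus strand 95 nt from the 5′ end of Ctnnd1. No other annotated span covered any of the 13 regions found in all 3 lists, so none of them is shared with another gene.

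**Figure D1:**
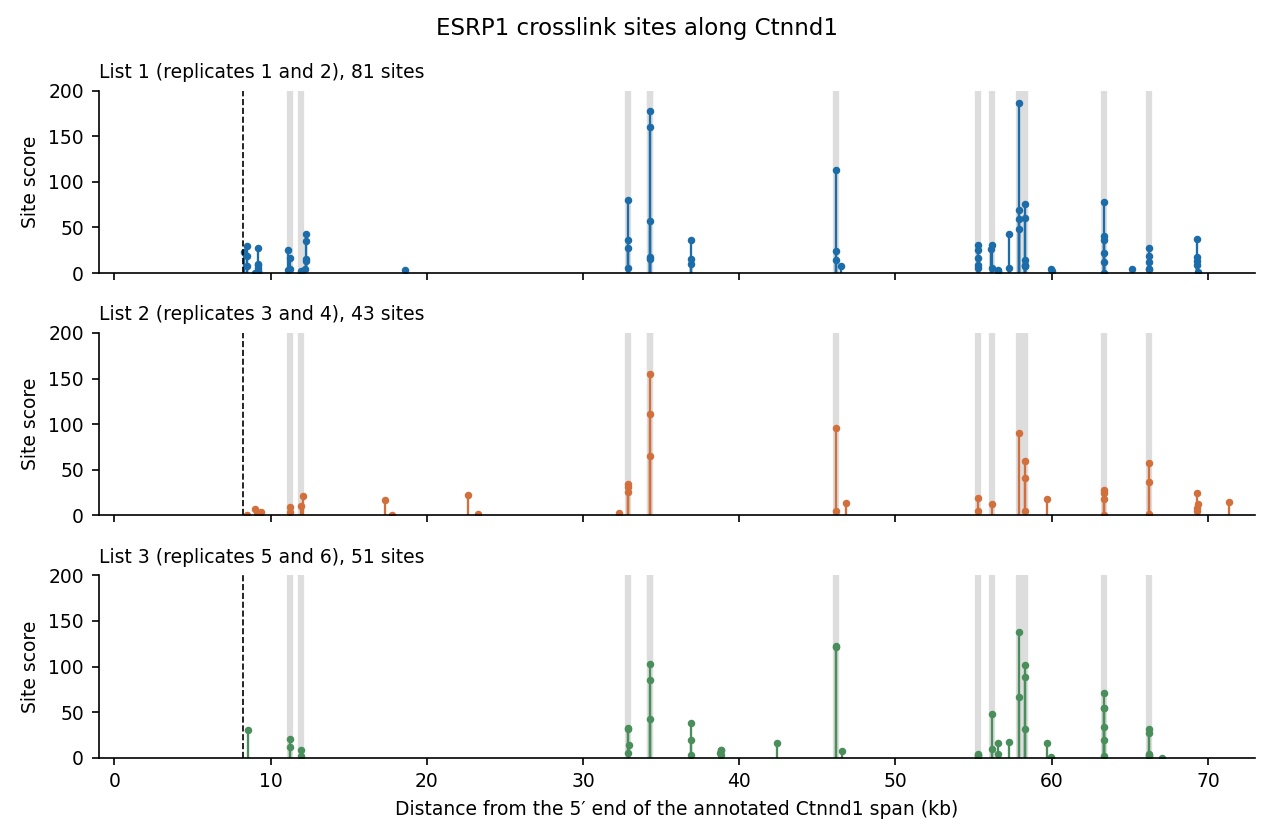
ESRP1 sites along Ctnnd1. Each stem is a site, its height the authors' score, and the horizontal axis is the distance in kb from the 5′ end of the annotated span, with 1 panel per list. Grey bars mark the 13 regions found in all 3 lists and the dashed line the downstream start. All 175 sites lie to the right of the dashed line, and the highest stems stand at the same places in each panel.

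Ctnnd1 took nearly the same share of each list. It held 81 sites in list 1, 43 in list 2 and 51 in list 3, which was 0.110% of the 73602 sites of list 1, 0.107% of the 40014 of list 2 and 0.0947% of the 53864 of list 3 (0.104% ± 0.00823, SD, n = 3 lists). The difference in site number between the lists thus followed their sizes. Within each list these sites formed 30, 29 and 27 regions (28.7 ± 1.53, SD, n = 3 lists). List 1 had more sites per region: the mean was 2.70 there, 1.48 in list 2 and 1.89 in list 3. Single-site regions numbered 8 of 30 in list 1, 21 of 29 in list 2 and 15 of 27 in list 3.

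Among 23 protein-coding genes with at least 100 sites over the lists, the coefficient of variation of the share had a median of 25.2% and was 7.91% in Ctnnd1, which ranked 5 from the lowest. The number of sites in a gene depends on how much of its RNA is present as well as on binding. Expression was not measured, and in tissue fewer cells with the transcript and less RNA per cell cannot be told apart.

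Scores of Ctnnd1 sites spanned nearly the whole range of ranks. In list 1 they ran from 0.157 to 187 with a median of 15.1, against a median of 11.6 over all sites of that list. For list 2 they ran from 0.417 to 154 with a median of 14.4 (14.7 over all sites), and in list 3 from 0.234 to 138 with a median of 16.7 (17.7 over all sites). The median Ctnnd1 site therefore lay near the middle of each list, at percentiles 57.2, 49.3 and 48.3. Scores above percentile 90 of their list were present at 8, 7 and 7 sites, or 9.88%, 16.3% and 13.7% of the Ctnnd1 sites of lists 1, 2 and 3.

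The 13 regions found in all 3 lists were short and scattered. They were 2 to 21 nt long with a median of 6 nt (8 nt over all regions found in all 3 lists) and covered 105 nt, or 0.146% of the span. From the 5′ end of the span, 2 lay in the first 23961 nt, 4 in the middle stretch of that length and 7 in the last. The median distance from the 5′ end was 55283 nt. With regions at most 1000 nt apart put together, they fell into 8 groups, of which the densest held 3 regions within 398 nt (84600692 to 84601089).

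These regions held 41 of the 81 sites of list 1, or 50.6% (Clopper-Pearson 95% interval 39.3 to 61.9). They held 24 of 43 sites of list 2, or 55.8% (39.9 to 70.9), and 30 of 51 sites of list 3, or 58.8% (44.2 to 72.4). These intervals overlap and cover counting error only, with neighbouring sites taken as independent. Regions 1 to 13 are numbered from the 5′ end below.

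In 5 regions, numbers 4, 5, 6, 9 and 10, the highest site lay above percentile 90 in each list, and these 5 also had the highest mean percentile over the lists. How many of all 9649 regions found in all 3 lists pass this cut is not given here, so the count has no background. Over those 9649 regions the median of the mean percentile was 75.3. Region 4, at 84624709 to 84624711, had 3, 2 and 2 sites in lists 1, 2 and 3 and highest scores of 177, 154 and 103. Region 5, at 84624687 to 84624690, had 2, 1 and 1 sites and highest scores of 160, 111 and 85.3. They form a pair in which the strongest nucleotide of each, 84624711 and 84624687, was the same in every list.

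Region 6, at 84612753 to 84612759, had 3, 2 and 2 sites and highest scores of 112, 96.2 and 123. Its nucleotide 84612753 was high in each list, at percentiles 95.7, 96.2 and 96.6. Its nucleotide 84612756 was at percentile 96.5 in list 3 but at 69.8 in list 1 and 21.1 in list 2.

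Region 9, at 84601085 to 84601089, had 2, 1 and 1 sites and highest scores of 187, 90.1 and 138, all at nucleotide 84601085. The list 1 value is the highest of any Ctnnd1 site. Region 10, at 84600711 and 84600712, had both nucleotides in each list, with highest scores of 76.2, 59.2 and 102.

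Ranked by the mean percentile of their highest site among all 9649 regions found in all 3 lists, region 4 was 433rd and region 9 was 465th. Region 6 was 680th, region 5 was 737th and region 10 was 1448th. By this measure 8 of the 13 lay above the median of all such regions and 5 below it.

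**Figure D2:**
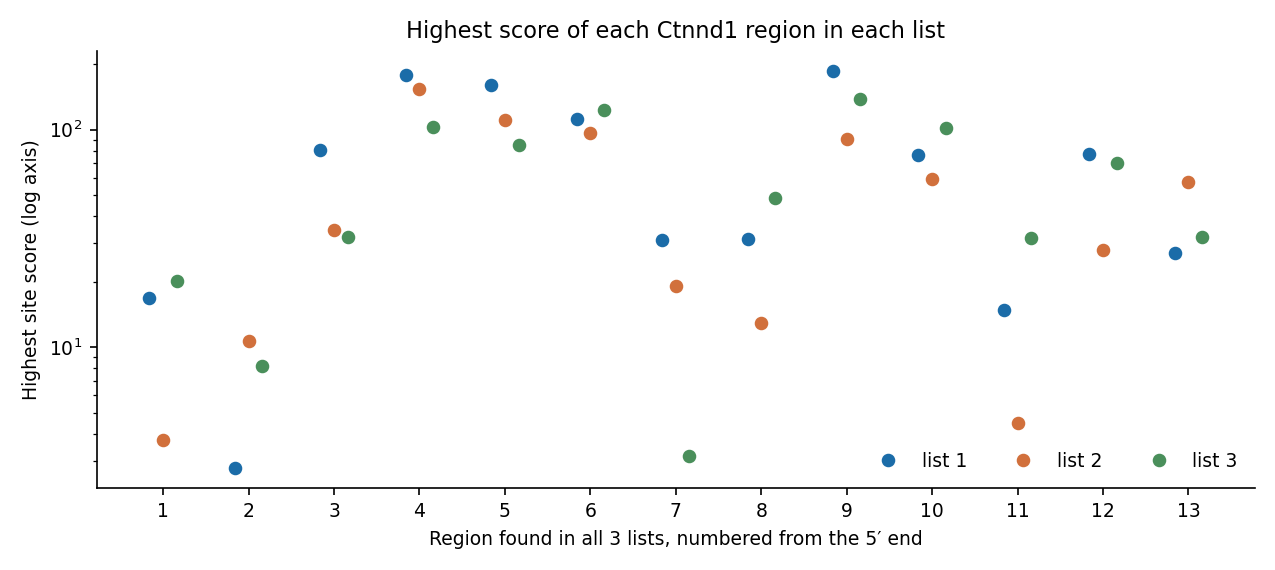
Highest authors' score of each of the 13 Ctnnd1 regions found in all 3 lists, on a log axis, with 1 point per list and regions numbered from the 5′ end. Regions 4, 5, 6, 9 and 10 lie between 59.2 and 187 in every list, and regions 1, 2, 7 and 11 have a point below 5.

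The other 8 regions had a highest site below percentile 90 in at least 1 list. Region 3, at 84626105 to 84626110, had 4, 3 and 3 sites with highest scores of 80.5, 34.6 and 32.2. Region 12, at 84595606 to 84595622, had 6, 4 and 6 sites with highest scores of 77.4, 28.0 and 70.5, and region 13, at 84592717 to 84592725, had 5, 3 and 5 sites with 27.2, 57.2 and 32.1. In each of these 3 regions the highest site was in the top 50% of its list every time. Region 8, at 84602811 to 84602815, had 1, 1 and 2 sites with highest scores of 31.2, 12.9 and 48.3.

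Regions 1, 2, 7 and 11 had their lowest rank, by highest site, at percentile 18.0 (list 2), 17.4 (list 1), 12.9 (list 3) and 21.0 (list 2). Region 1 (84647699 to 84647706) had highest scores of 16.7, 3.76 and 20.1 and region 2 (84646997 to 84647008) had 2.78, 10.7 and 8.20. Region 7 (84603684 to 84603704) had 30.9, 19.1 and 3.16, and region 11 (84600692 to 84600697) had 14.8, 4.48 and 31.7. When the lower 50% of scores in each list was dropped, regions 1, 2, 7, 8 and 11 were lost and 8 remained.

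A minority of Ctnnd1 sites recurred at the same nucleotide in every list, at shares near those over the whole data set. The sites stood on 119 different nucleotides, of which 81 were in 1 list, 20 in 2 lists and 18 in all 3. Those 18 made up 22.2% of list 1 sites (Clopper-Pearson 95% interval 13.7 to 32.8). They made up 41.9% of list 2 sites (27.0 to 57.9) and 35.3% of list 3 sites (22.4 to 49.9). Over the whole data set the shares were 19.8%, 36.4% and 27.1%, each inside the interval for Ctnnd1. Neighbouring sites are not independent, and no test was made of this difference. With 1 list left out, the count of nucleotides in the 2 remaining lists was 18 without list 1 and 28 without list 2 or without list 3.

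The 18 shared nucleotides fell in 10 of the 13 regions. Regions 1, 2 and 7 had sites of each list within 10 nt but no nucleotide common to all. Regions 3 and 13 had 3 shared nucleotides each, and regions 4, 6, 10 and 12 had 2 each. Shared nucleotides had the higher scores: their median percentile was 83.6 in list 1, 82.1 in list 2 and 83.1 in list 3, against 45.3, 37.9 and 31.7 for the other Ctnnd1 sites. These medians were not set against those of the whole data set, so they are not shown to be particular to Ctnnd1.

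Scores at nucleotides common to a pair of lists were positively correlated. On the scale log2(score + 1), Pearson's r was 0.66 between lists 1 and 2 (Spearman's rank correlation 0.74, 28 nucleotides), 0.59 between lists 1 and 3 (rank correlation 0.64, 28 nucleotides) and 0.41 between lists 2 and 3 (rank correlation 0.51, 18 nucleotides). These values are over nucleotides of 1 gene, many of them neighbours in a region, and describe these lists only.

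**Figure D3:**
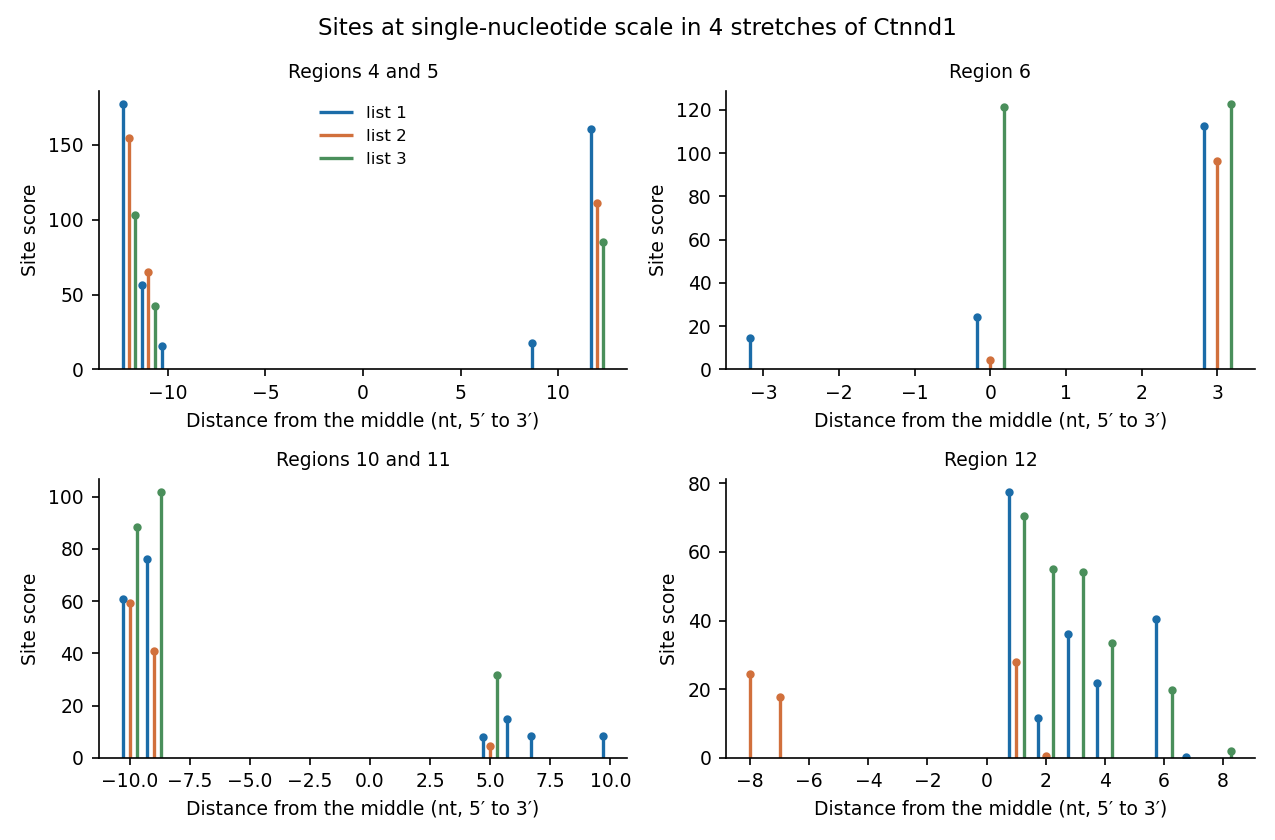
Sites at single-nucleotide scale in 4 stretches of Ctnnd1, with the authors' score on the vertical axis and the distance from the middle of the stretch in nt on the horizontal axis, 5′ to 3′. Stems of the 3 lists are drawn slightly side by side where they share a nucleotide. In regions 4 and 5 the highest stems coincide, in region 6 list 3 has a second high stem, and in region 12 the 2 sites of list 2 at the left have no partner.

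Of the 49 regions, 26 held sites of a single list and 10 held sites of 2 lists. The share found in all 3 was 26.5% (Clopper-Pearson 95% interval 14.9 to 41.1), and the share over all 45738 regions, 21.1%, lies inside that interval. The interval takes regions of 1 gene as independent, and the gene was chosen with its count known. It is therefore no test of a difference from all regions. Among 154 protein-coding genes with at least 20 regions, the share had a median of 13.6% and a range of 0 to 40.0%, and Ctnnd1 ranked 16th. Lists 1, 2 and 3 alone gave 8, 10 and 8 regions. Of the 26 single-list regions, 22 were a single site.

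Regions of 2 lists included some strong contacts. The strongest, at 84601044 to 84601053, had highest scores of 69.3 in list 1 and 66.4 in list 3, with no site in list 2. It lies a step of 32 nt from region 9. A region at 84622070 to 84622073 had highest scores of 36.5 in list 1 and 38.2 in list 3. The one closest to the 3′ end, at 84589635 to 84589647, had 5 sites in list 1 and 4 in list 2, with highest scores of 37.8 and 24.3, and none in list 3.

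The joining distance of 10 nt cut between few sites. The widest step joined was 10 nt, in region 7 and in a region of lists 1 and 2 at 84649769 to 84649786. The narrowest step left apart was 13 nt, between region 7 and 3 sites of list 3 at 84603668 to 84603671, followed by 14 nt between regions 10 and 11. A step of 17 nt separated sites at 84650440 and 84650457, one of 18 nt a list 1 site at 84602793 from region 8, and one of 19 nt regions 4 and 5. Joining distances of 1, 5, 20 and 50 nt gave 14, 12, 12 and 12 regions found in all 3 lists.

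Just beyond the downstream start, list 3 had few sites. Between that start and region 1, a stretch of 3034 nt (84647707 to 84650740) whose limits were set after the values were seen, list 1 had 14 of its 81 sites, or 17.3% (Clopper-Pearson 95% interval 9.78 to 27.3). Of the 43 sites of list 2, 6 lay there, or 14.0% (5.30 to 27.9), and of the 51 of list 3 there was 1, or 1.96% (0.0496 to 10.4). The intervals overlap but treat sites as independent, while 7 of the list 1 sites lay in a single cluster at 84649769 to 84649786. No test was made. Of the 8 regions there, 3 were of lists 1 and 2 and 5 of a single list, and by its limits the stretch holds none found in all 3.

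The strongest sites of that stretch were at 84650460 in list 1, with a score of 29.6, and at 84650440 in list 3, with 30.1, on different nucleotides. A list 1 cluster of 7 sites at 84649769 to 84649786, with a highest score of 27.4, met 2 list 2 sites with a highest score of 2.96. Just beyond region 2, a further list 1 cluster of 5 sites at 84646732 to 84646740 (highest score 42.8) had no counterpart in the other lists. The first regions found in all 3 lists, numbers 1 and 2, stood 3037.5 and 3737.5 nt from the downstream start, and the next one came 20886 nt later.

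That 20886 nt interval between regions 2 and 3 held few sites. In the 10000 nt from 20000 to 30000 nt beyond the 5′ end of the span, lists 1 and 3 had no site and list 2 had 2, with scores of 22.6 and 1.45. By contrast, the 10000 nt from 50000 to 60000 nt held 24, 8 and 16 sites and 5 regions found in all 3 lists, and the next 10000 nt held 17, 11 and 12 sites and 2 such regions. Beyond 70000 nt, the 3′ end of the gene had a single site, in list 2 at 84587651 with a score of 14.4. Length in these bins includes introns, so a sparse bin is not a statement about exons.

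Compared with other genes, Ctnnd1 had rank 2 by the number of regions found in all 3 lists. A region of this kind was present in 3647 of 21900 protein-coding genes (16.7%), of which 2271 had 1 and 104 had 5 or more. Hrnr, which encodes the repeat-rich cornified envelope protein hornerin, stood directly above with 15 regions. Whether reads shared between its repeats add to that count was not tested. Directly below with 11 each stood Ahnak, a very large scaffold protein gene, and Col7a1, whose collagen anchors the epidermis to the dermis. By sites on the gene's strand Ctnnd1 had rank 1 in list 1, rank 5 in list 2 and rank 4 in list 3, where 1 other gene tied with it.

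Genes of like length had fewer regions. Of 5014 protein-coding genes with spans of 0.5 to 2 times that of Ctnnd1, 1266 (25.2%) had a region found in all 3 lists, with a median of 1 where any was present, and Ahnak came next after Ctnnd1 with 11. Per 10 kb of span, however, Ctnnd1 held 1.81 regions and ranked 26th of the 104 genes with at least 5. The rank by number and the rank by density therefore differ, and Col7a1 (3.52 per 10 kb) and Jup (3.11) were denser.

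The 3 genes most like Ctnnd1 in their numbers of sites over the 3 lists, by the distance of log2(sites + 1), were Col7a1, Marchf3 and Ahnak. Col7a1 had 77, 39 and 54 sites (distance 0.18), Marchf3, which encodes a membrane ubiquitin ligase, had 58, 32 and 40 (0.72), and Ahnak had 73, 28 and 67 (0.73). This likeness rests on 3 lists and on counts alone.

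**Figure D4:**
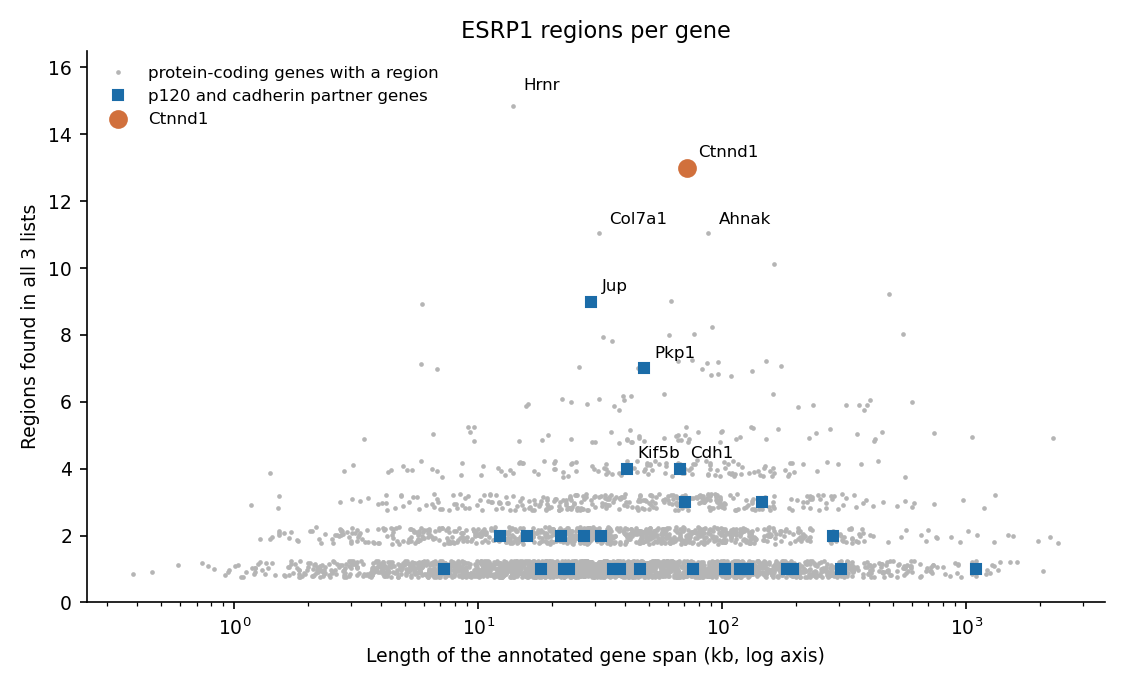
Number of regions found in all 3 lists against the length of the annotated span in kb (log axis) for the 3647 protein-coding genes with such a region; grey points are moved slightly up or down to show overlaps. Ctnnd1 (13 regions) lies below Hrnr (15) alone, and blue squares mark the p120 and cadherin partner genes, of which Jup (9) and Pkp1 (7) are highest.

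Most of the listed relatives and partners of p120-catenin also had regions found in all 3 lists, each fewer than Ctnnd1. All are called partner genes here, although 6 of them are listed as armadillo relatives of p120. Of 42 partner genes in 3 lists, 27 (64.3%) had a region found in all 3 site lists, against 16.7% of all protein-coding genes, with a median of 1 region per gene against 0. The partner genes were chosen from general knowledge of the protein with earlier results known, and many are expressed in epithelia, so these shares are given as a description. The share of all genes was not matched to the partner genes in span length. Nor was it matched in the source of the strand. The promoter table gave no strand for 17 of the 42 partner genes and for 4408 of all 21900. Where such genes had sites, the strand with most of them was used, which can favour finding a region. Of their 57 regions, 2 also lay under another annotated gene: 1 of the 3 in Nectin1 (Gm46108) and the one in Numb (Gm46367).

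The armadillo relatives of p120 were split. Pkp1, which encodes the desmosomal plaque protein plakophilin 1, had 7 regions and 28, 23 and 30 sites in lists 1, 2 and 3. Pkp3 had 2 regions (19, 8 and 16 sites) and Pkp4 had 1 (11, 3 and 6). Ctnnd2, Arvcf and Pkp2 had none: Ctnnd2 had a single site in list 1, Arvcf had 3 sites in list 2, and Pkp2 had no site assigned.

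Among cadherins and their adhesion partners, 8 of 14 genes had a region. Jup, which encodes plakoglobin, had 9 regions with 34, 30 and 29 sites, and Cdh1, the E-cadherin that p120 binds, had 4 with 20, 20 and 30. Cdh3, the P-cadherin of basal keratinocytes, had 1 region with 5, 9 and 4 sites. Ctnnb1, which encodes β-catenin, had 2 regions with 15, 9 and 14 sites. Ctnna1, encoding the α-catenin that links cadherins to actin, had 5 sites in list 3, none in the others and no region.

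The remaining members of that group with regions were the nectin genes Nectin1 (3) and Nectin4 (1), the nectin linker gene Afdn (3) and the α-catenin gene Ctnna2 (1). The Ctnna2 region lay in a span of 1098179 nt, at 0.00911 regions per 10 kb. Cdh2, Cdh5 and Cdh11, cadherins of mesenchymal or endothelial cells, had no site assigned, and Vcl and Nectin2 had sites but no region. Of all protein-coding genes, 66.0% had no site, and a gene without sites may be unbound or unexpressed. Of the 5 cadherin genes in this list, those with regions were Cdh1 and Cdh3.

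Of 22 genes for p120 interaction, small GTPase signalling, kinases and trafficking, 16 had a region. Kif5b, a kinesin motor gene, led with 4 regions and 25, 7 and 16 sites. Rhoa, the small GTPase whose activity p120 restrains, had 2 regions, as did Camsap3, which encodes a microtubule minus-end protein, Cbll1, the E-cadherin ubiquitin ligase Hakai, and the kinase gene Fer. The other 11 had 1 each: Arhgef1, Cdc42, Cttn, Kifc3, Numb, Plekha7, Prkd1, Rac1, Rock1, Yes1 and Zbtb33, the gene of Kaiso. Arhgap35, Fyn, Src, Ptpn6, Rock2 and Vav2 had none.

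The tissue label was checked against marker genes, with binding as the only readout. Of 10 keratinocyte markers, 7 had a region found in all 3 lists (Col17a1, Dsg1a, Dsp, Krt15, Krt5, Perp and Trp63), whereas Krt10 had sites but no such region and Krt1 and Krt14 had no site assigned. Of 17 markers of melanocytes, fibroblasts, immune cells and endothelium, 1 had such a region (Mitf) and 12 (70.6%) had no site. Over all 21900 protein-coding genes, 16.7% had such a region and 66.0% had no site, so the share of these 17 markers without a site was near that of all genes. A gene without sites may be unbound or unexpressed, which these lists cannot tell apart. Sites under overlapping protein-coding spans of the same strand were assigned to no gene, so a gene can also lack sites for that reason. Whether this applied to Krt1 or Krt14 was not tested.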

How the data were processed

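Sites were called with input, per the file headers, on 2 immunoprecipitated replicates together, which hides how far the replicates of a pair differ. Each site has a score that the authors deposited without a stated scale, ending at 708.396. GRCm38, HISAT2 2.1.0, HOMER and cutadapt 1.16 appear without roles, per the submitters' processing notes. The sources used here do not give the caller, its settings or the treatment of PCR duplicates, and read depth is unknown.

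Regions and counts were computed with Python 3.11.15, pandas 2.3.3 and scipy 1.17.1, and the joining of sites was tested on simulated data. The simulated regions lay well apart in genes without overlap, so steps near the joining distance and overlapping spans were not tested. A region counted for the protein-coding gene whose span, alone on that strand, held its middle. Strand came from the RefSeq promoter table for 17492 of 21900 protein-coding genes (Ctnnd1 included) and from the strand with most sites for 1648. Of the 42 partner genes, 17 had no strand in that table. Where both were known they matched for 87.3% of 6583 genes. Intervals are Clopper-Pearson (95%).

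The gene and the gene lists were chosen with earlier results of these data known. Named genes were Ctnnd1, partner genes with a region, Cdh1, Cdh3, Ctnna1 and Ctnnb1, the 3 genes most like Ctnnd1 and its neighbours in rank. Other partner genes were named after their values were seen. Alternatives changed the joining distance, the scores kept, the matching of nucleotides and the lists used. Equal list sizes and the strand of most sites for every gene were chosen after seeing the data.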

Additional observations from a re-analysis of the deposited data

How the results depend on the processing

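Ctnnd1 had 8 regions found in all lists when only the top 50% of scores was kept, against 13. Leaving out 1 list gave 14 to 18 regions, which had to hold sites of the 2 remaining lists only, a looser requirement. Equal list sizes gave 11, which kept 11 of the 13. Under the same looser requirement, the shared nucleotides ranged from 18 to 28 when 1 list was left out. Nucleotides shared by all 3 lists were 24 when matched within 1 nt, 12 in the top 50% of scores and 15 with equal list sizes. The rank of Ctnnd1 by number of regions was 3 with the top 50% of scores (Ahnak and Hrnr above), 3 with a joining distance of 50 nt (Col7a1 and Hrnr above) and 26 by regions per 10 kb. It was 2 without any 1 list, with equal list sizes and with the strand of most sites for every gene. Without list 3 the gene above was Col7a1 and not Hrnr. The median distance of the regions from the 5′ end ranged from 46221 to 56356 nt over its alternatives, and the number of partner genes with a region from 19 to 30. The absence of read counts limits every statement on missing sites. No paired analysis was possible because no test was made and the lists pool their replicates.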

Other observations

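Sites within Ctnnd1 regions stood mostly on neighbouring nucleotides. Of 70 steps of at most 10 nt between nucleotides with a site, 38 (54.3%) were 1 nt, against 62.8% of 68721 such steps over all sites. The 13 regions found in all 3 lists held 3.15, 1.85 and 2.31 sites on average in lists 1, 2 and 3, against 3.87, 2.13 and 3.33 over all 9649 such regions. Neither difference was tested.

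Sharing between pairs of lists was compared with that over all regions, without a test. Of regions with a list 1 site, 56.7% in Ctnnd1 and 47.6% overall also held list 2, and 60.0% and 49.6% held list 3. Of regions with a list 2 site, 60.7% in Ctnnd1 and 57.1% overall held list 1, and 14 of 28 in Ctnnd1 and 45.5% overall held list 3. Of regions with a list 3 site, 66.7% in Ctnnd1 and 63.9% overall held list 1, and 51.9% and 48.9% held list 2.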
